A study of Mus musculus with 8 samples.

Results

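The 10 genes described here encode the endothelial co-receptor endoglin (Eng), receptors for bone morphogenetic proteins (BMPs) and transforming growth factor beta (Acvrl1, Bmpr2, Tgfbr1, Tgfbr2), BMP ligands (Bmp2, Bmp4) and extracellular proteins that bind or limit BMPs (Bmper, Nog, Chrdl1). They were chosen by name and found by gene identifier, 1 row each, among the 52636 genes of the count table, and all 10 were among the 15698 genes with enough counts to be tested. The table holds 8 RNA-seq libraries of mouse liver endothelial cells (the lining of blood vessels), sorted from culture as live CD45-negative cells positive for CD31 and VE-cadherin. The 4 groups, with 2 libraries each, were dKO cells with IL1B and TNFA, WT cells with IL1B and TNFA, dKO cells without them and WT cells without them. The deletion concerns Erg and/or Fli1, which encode transcription factors of the ETS family, and the labels do not expand dKO. 4-hydroxytamoxifen (4-OHT) was in the medium for 48 hours to induce it, and culture went on for 7 days, counted from the first addition. The 2 inflammatory cytokines were then given for 16 hours where the label names them. The labels also mention 4-OHT treatment of mice. No source used here gives the strain, the age or the Cre driver. The labels do not state whether the 2 libraries of each group are from different animals or cultures, so every p-value measures the spread between these libraries only.

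BMPs and related ligands bind a pair of type I and type II receptor kinases on the cell surface, which phosphorylate SMAD proteins that enter the nucleus and switch on genes such as those of the Id family. In endothelial cells, the type I receptor ALK1 (the product of Acvrl1), the type II receptor BMPR2 and endoglin together receive circulating BMP ligands, whereas the products of Tgfbr1 and Tgfbr2 receive transforming growth factor beta. Secreted antagonists such as noggin hold BMPs away from their receptors. In people, loss of a copy of ENG or ACVRL1 causes hereditary haemorrhagic telangiectasia, a disease of fragile and shunting vessels, and BMPR2 is mutated in heritable pulmonary arterial hypertension.

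The stretch before the transcription start is shown for 3 genes whose level differed between dKO and WT cells, because the deleted genes encode factors that bind ETS motifs. The sequences are the 250 bases upstream of the RefSeq start on GRCm38.p6, written 5′ to 3′ on the strand of the gene. They come from chr2:32646345-32646594 (plus strand) for Eng, chr4:47352972-47353221 (plus strand) for Tgfbr1 and chr9:23222826-23223075 (plus strand) for Bmper. Capitals mark an ETS motif (AGGAAGT or CGGAAGT on either strand) in Eng and the palindromic BMP SMAD element GGCGCC in Tgfbr1.
Eng: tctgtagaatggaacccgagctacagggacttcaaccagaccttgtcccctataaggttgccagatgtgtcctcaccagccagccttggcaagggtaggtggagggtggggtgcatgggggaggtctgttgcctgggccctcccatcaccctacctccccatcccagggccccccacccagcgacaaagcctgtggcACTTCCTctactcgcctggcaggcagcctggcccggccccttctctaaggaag
Tgfbr1: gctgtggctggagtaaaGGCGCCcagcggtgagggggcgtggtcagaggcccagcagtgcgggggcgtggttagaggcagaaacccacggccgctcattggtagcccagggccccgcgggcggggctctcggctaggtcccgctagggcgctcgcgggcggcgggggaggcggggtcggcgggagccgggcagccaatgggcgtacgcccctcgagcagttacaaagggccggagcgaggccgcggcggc
Bmper: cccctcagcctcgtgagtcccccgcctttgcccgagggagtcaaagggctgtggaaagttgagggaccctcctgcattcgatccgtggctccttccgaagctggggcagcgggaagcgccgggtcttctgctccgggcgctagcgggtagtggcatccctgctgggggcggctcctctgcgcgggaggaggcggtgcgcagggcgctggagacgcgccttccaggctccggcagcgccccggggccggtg
The ETS motif in the Eng sequence lies on the minus strand, 53 to 47 bases before the start, and appears as ACTTCCT on the printed strand. It was the only match to AGGAAGT or CGGAAGT in the 7 upstream sequences that the RefSeq promoter table held for the 10 genes. These sequences cover 6 of the 10 (Eng, Bmpr2, Tgfbr1 with 2 starts, Tgfbr2, Bmp4 and Bmper). Among all 32851 upstream sequences of the table, 12.19% held such a match. Other forms of ETS motif were not searched for. GGCGCC was found in 2 of the 7, beginning 105 bases before the start in Bmpr2 and 233 bases before the first start in Tgfbr1, against 9.59% of all sequences. These matches describe the letters of the sequences and nothing about binding.

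Library totals ran from 23009062 to 26944030 counts. Levels below are CPM, a gene's counts relative to its library's total after scaling with edgeR's TMM factors, and each pair of values gives replicate 1 and then replicate 2. Erg ranged from 34.7 to 91.3 CPM in the 4 dKO libraries and from 186 to 208 CPM in the 4 WT libraries. Fli1 ranged from 12.4 to 62.5 CPM in dKO and from 91.5 to 177 CPM in WT, and neither gene passed the test between genotypes (edgeR adjusted p from 0.0538 to 0.0864). No source used here says whether the counted exons include the deleted ones. The dKO replicate 2 libraries stood nearer to WT than dKO replicate 1: for 7 of the 10 genes with cytokines and 8 of 10 without, the dKO replicate 2 value lay between dKO replicate 1 and the WT mean. Both dKO replicate 2 libraries also held reads of the female-specific Xist (171 CPM with cytokines and 224 CPM without) together with the Y-linked Ddx3y (117 and 90.6 CPM). Each of the other 6 libraries held 1 of the 2 at under 2 CPM. In dKO replicate 1 that was Xist, but the WT replicates differed in sex. Without cytokines, WT Xist was 0.480 and 633 CPM and Ddx3y 118 and 0.0337 CPM. With cytokines, WT Xist was 0.926 and 454 CPM and Ddx3y 110 and 0.0393 CPM. Sex was thus not balanced between the genotypes, and its part in the results below, among them X-linked Chrdl1, was not tested. Where leaving out both dKO replicate 2 libraries changed a call of the 10 genes, the log2 fold change without them is given. Each dKO group then holds 1 library and its spread is taken from the WT libraries, so no p-value is given.

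Of the endothelial markers, all 10 had counts in every library. In dKO replicate 1, 9 of the 10 reached 1 CPM. There Robo4 stood at 0.409 CPM with cytokines and 0.670 CPM without, against 65.0 to 200 CPM in WT libraries. The summed level of the 10 markers was 1486 and 2391 CPM in dKO with cytokines, 4969 and 4951 CPM in WT with cytokines, 1204 and 2594 CPM in dKO without and 6142 and 6401 CPM in WT without. The 15 markers of stellate cells, pericytes and fibroblasts summed to 19189 and 15243 CPM in dKO with cytokines, 10858 and 9977 CPM in WT with cytokines, 17823 and 13402 CPM in dKO without and 9221 and 9350 CPM in WT without. The collagen-binding proteoglycan gene Dcn made up most of that sum in every library, and Pdgfra stood at 615 to 1174 CPM in dKO libraries against 2.07 to 32.2 CPM in WT libraries. The stellate cell gene Lrat was at 0 in 6 libraries and at most 0.0454 CPM in the others. Between dKO and WT with cytokines, 6 of the 13 markers of this list tested were higher and none lower (edgeR adjusted p under 0.05). Without cytokines 6 were higher and 1 lower. Of all genes tested, 18.6% were higher and 15.4% lower with cytokines, and 13.4% and 9.66% without. In each condition 11 of the 13 had a log2 fold change above 0 and 2 below. The 8 markers of bile duct and mesothelial cells summed to 44.0 to 264 CPM in dKO and to 2.58 to 3.51 CPM in WT, with Spp1 and Sox9 the highest in dKO and Epcam at most 0.223 CPM anywhere. Leukocyte markers (8 genes) summed to 4.32 to 10.1 CPM. Only Cd68 (1.81 to 7.63 CPM) and Csf1r (1.15 to 4.06 CPM) reached 1 CPM, and Cd3e was at 0 in all 8 libraries. Hepatocyte markers (6 genes) summed to at most 0.0909 CPM. Their part in the results below was not tested. In bulk RNA, fewer cells of a type and less RNA per cell cannot be told apart, here and in every comparison below.

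To compare levels between genes, counts were divided by exon length and scaled to the same total in every library (TPM). In WT cells without cytokines, Eng was the highest of the 10 with 3219 ± 242 TPM (mean ± SD, n = 2), followed by Bmp4 with 834 ± 14.9 TPM. The receptors came next, Tgfbr2 with 297 ± 12.9, Bmpr2 with 100.5 ± 2.98, Acvrl1 with 83.3 ± 5.63 and Tgfbr1 with 30.6 ± 2.94 TPM. Bmper (18.99 ± 4.71 TPM) and Bmp2 (16.2 ± 0.807 TPM) overlapped between libraries, and Chrdl1 (6.25 ± 2.20 TPM) and Nog (0.325 ± 0.0809 TPM) were lowest. The order differed in dKO cells with cytokines: Eng was still highest with 275 ± 61.9 TPM, but the libraries of Tgfbr2, Bmper, Acvrl1, Bmp4, Tgfbr1 and Bmpr2 followed without a gap between neighbours, from 90.2 TPM for Tgfbr2 to 41.3 TPM for Bmpr2. There Nog (8.82 ± 0.405 TPM) stood above Bmp2 (6.65 ± 0.806 TPM), and Chrdl1 was last with 0.00982 TPM. In dKO cells without cytokines, Eng (647 ± 279 TPM) led again, Bmp4 (261 ± 200 TPM) and Tgfbr2 (218 ± 56.6 TPM) overlapped, and Chrdl1 was lowest. Where counting ignores strand, which is not known here, genes that overlap on opposite strands can share reads: such overlaps cover 61 exon bases of Eng (1.51%, with Fpgs), 127 of Acvrl1 (2.98%, with Gm16031), 89 of Bmp4 (3.96%, with Gm15217) and none of the other 7 genes.

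**Figure D1:**
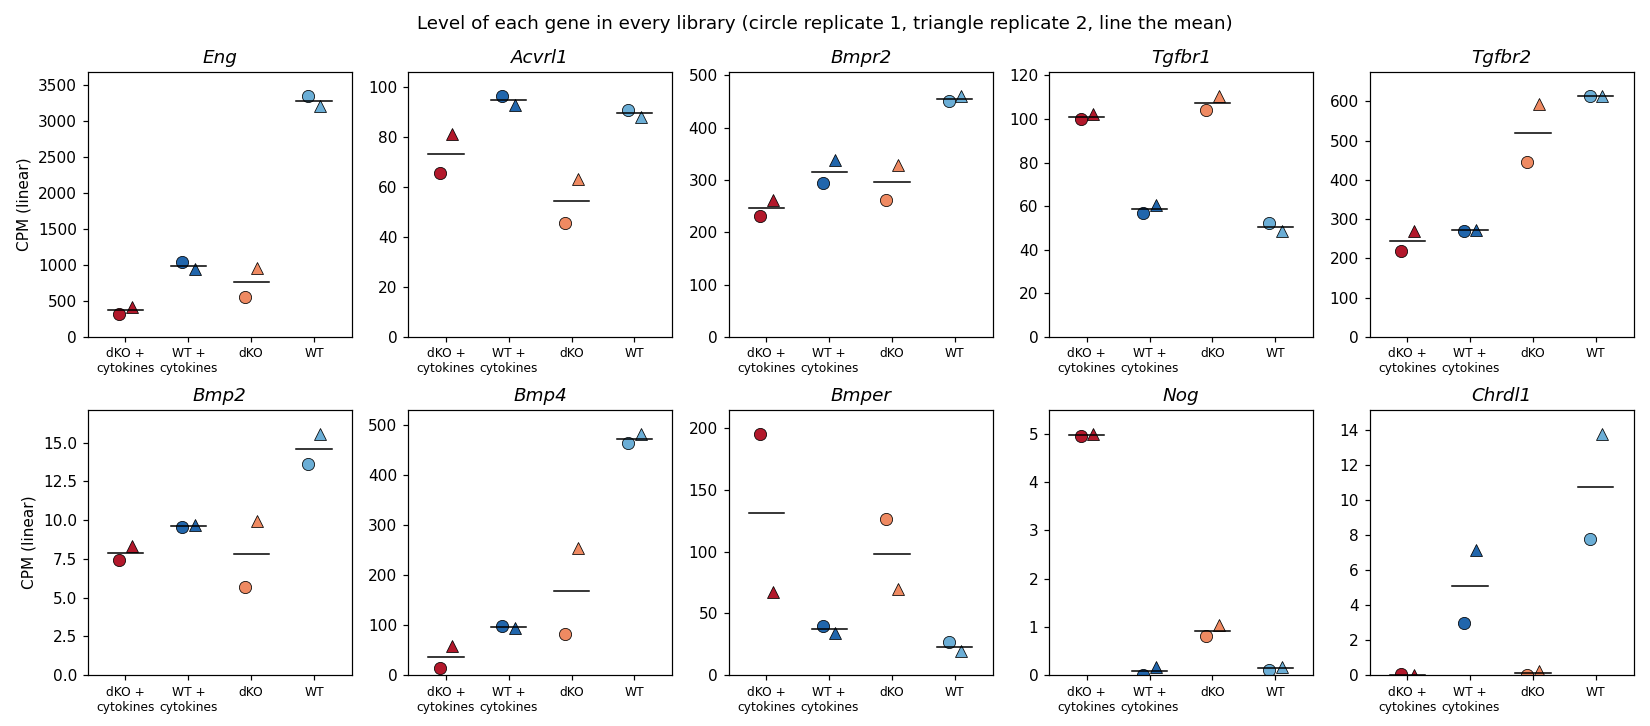
Level of each of the 10 genes in CPM (linear axes from 0) in dKO with cytokines, WT with cytokines, dKO and WT. Circles are replicate 1, triangles replicate 2 and the lines group means of 2 libraries; Eng is highest in WT without cytokines (3354 and 3214 CPM), and Chrdl1 is at or near 0 in all 4 dKO libraries.

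The first comparison asked how the genes differ between dKO and WT cells in the absence of cytokines. Eng, Acvrl1, Bmpr2 and the antagonist gene Chrdl1 were lower in dKO cells, Tgfbr1 and the BMP modulators Bmper and Nog were higher, and Tgfbr2, Bmp2 and Bmp4 did not pass. Thus 3 of the 10 genes rose and 4 fell (edgeR's quasi-likelihood test, Benjamini-Hochberg adjusted p under 0.05 over 15698 genes), where 23% of all genes tested passed, 13.4% higher and 9.66% lower. The libraries of dKO and WT did not overlap for any of the 10, as held for 70.0% of all genes tested. The median log2 fold change of the 10 genes was -0.67, beside 0.02 over all genes.

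Eng (ENSMUSG00000026814, GRCm38 chromosome 2, 32646595 to 32682669, plus strand) had 559 and 960.1 CPM in dKO cells, against 3354 and 3214 CPM in WT cells. Both dKO libraries were far below both WT libraries, dKO replicate 1 the lower. The log2 fold change was -2.11 (SE 0.27, adjusted p = 0.00565), and without both dKO replicate 2 libraries it was -2.57. Acvrl1 (ENSMUSG00000000530, chromosome 15, 101128522 to 101145336, plus strand), which encodes ALK1, the type I receptor that endoglin assists, had 45.4 and 63.3 CPM in dKO cells, against 90.9 and 88.1 CPM in WT cells. Both dKO libraries were below both WT libraries, by a smaller factor than for Eng (log2 fold change -0.72, SE 0.17, adjusted p = 0.0306). Bmpr2 (ENSMUSG00000067336, chromosome 1, 59763400 to 59879014, plus strand), the type II receptor for BMPs, had 262 and 329 CPM in dKO cells, against 451 and 461 CPM in WT cells. The dKO libraries were again the lower ones in both replicates (log2 fold change -0.63, SE 0.14, adjusted p = 0.0266).

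Tgfbr1 (ENSMUSG00000007613, chromosome 4, 47353222 to 47414931, plus strand), the type I receptor for transforming growth factor beta, moved the other way, with 104 and 111 CPM in dKO cells, against 52.2 and 48.6 CPM in WT cells. The 2 libraries of each genotype lay close together and the dKO pair was higher (log2 fold change 1.09, SE 0.09, adjusted p = 0.00146). Tgfbr2 (ENSMUSG00000032440, chromosome 9, 116084293 to 116175360, minus strand), the type II receptor that pairs with it, had 446 and 592 CPM in dKO cells, against 612 and 614 CPM in WT cells. The dKO replicate 2 value was close to WT, and the log2 fold change of -0.24 did not pass (95% interval -0.63 to 0.15, adjusted p = 0.316). Without both dKO replicate 2 libraries it was -0.47. Summed over 10 markers, the endothelial level was also lower in dKO libraries, and that list's median log2 fold change (-1.77) lay between the values of Eng and Acvrl1.

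Of the ligand genes, Bmp2 (ENSMUSG00000027358, chromosome 2, 133552159 to 133562885, plus strand), whose product from liver endothelium induces hepcidin in hepatocytes, had 5.68 and 9.94 CPM in dKO cells, against 13.6 and 15.5 CPM in WT cells. The difference missed the threshold (log2 fold change -0.90, SE 0.27, adjusted p = 0.0531), and passed with DESeq2 (-0.91, adjusted p = 0.0167). Without both dKO replicate 2 libraries the log2 fold change was -1.38. Bmp4 (ENSMUSG00000021835, chromosome 14, 46383520 to 46390669, minus strand), a BMP with wide roles in development and vessels, had 82.7 and 254 CPM in dKO cells, against 464 and 482 CPM in WT cells. The dKO libraries differed by 1.62 on the log2 scale, while the WT libraries nearly coincided. The log2 fold change of -1.49 did not pass over all libraries (95% interval -3.29 to 0.31, adjusted p = 0.186), and was -2.53 without both dKO replicate 2 libraries.

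All 3 extracellular modulators passed. Bmper (ENSMUSG00000031963, chromosome 9, 23223076 to 23485200, plus strand) encodes BMP-binding endothelial regulator, a secreted protein that can limit or aid BMP signalling. It had 126 and 69.7 CPM in dKO cells, against 26.4 and 19.7 CPM in WT cells. Both dKO libraries were higher than both WT libraries, dKO replicate 1 the highest (log2 fold change 2.09, SE 0.55, adjusted p = 0.0441). Nog (ENSMUSG00000048616, chromosome 11, 89300638 to 89302332, minus strand) encodes noggin and was barely expressed, with 18 and 25 counts (0.804 and 1.04 CPM) in dKO cells, against 3 and 5 counts (0.111 and 0.169 CPM) in WT cells. Over both libraries, the ratio of dKO to WT was 6.57 (95% counting interval 3.05 to 16.2), and the test gave a log2 fold change of 2.67 (SE 0.71, adjusted p = 0.0396).

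Chrdl1 (ENSMUSG00000031283, chromosome X, 143285674 to 143394262, minus strand) encodes chordin-like 1, a secreted BMP antagonist. It had 0 and 5 counts (0 and 0.208 CPM) in dKO cells, against 210 and 408 counts (7.75 and 13.8 CPM) in WT cells. It was near absent in both dKO libraries and present in both WT libraries, and in the summed counts it was 101-fold lower in dKO cells (95% counting interval 43.1 to 313). The fitted log2 fold change of -6.59 (SE 0.99, adjusted p = 0.00899) depends on the small count added in fitting and is no bound. Counting intervals cover counting error only, not the spread between libraries. Beside these antagonist genes, the summed level of the stellate cell, pericyte and fibroblast markers was 17823 and 13402 CPM in dKO against 9221 and 9350 CPM in WT. Most of that sum was Dcn, and single markers rose far more. Pdgfra was 269-fold, Col3a1 42.2-fold and Col1a2 41.5-fold higher in dKO. The median log2 fold change of the 13 markers tested was 2.61, with 2 of them below 0. The part of these markers in the change of the antagonist genes was not tested.

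Eng and Tgfbr1 passed whichever of the 8 libraries was left out (adjusted p at most 0.0444 and 0.0231). The other calls were lost in some of those fits, as follows. Chrdl1 lost its call without WT replicate 2 (adjusted p = 0.0513). Bmpr2 lost it without dKO replicate 1, WT replicate 1 or WT replicate 2 (0.108 to 0.121), and Acvrl1 also without either WT library given cytokines (0.0572 to 0.130). Bmper lost it without dKO replicate 1, either WT library or either WT library given cytokines (0.0842 to 0.196), and Nog without any 1 of the 4 dKO libraries or of the 2 WT libraries lacking cytokines (0.0561 to 0.185). Without both dKO replicate 2 libraries Nog had a log2 fold change of 2.46. With only the 4 libraries compared in the fit, Acvrl1 (adjusted p = 0.0638) and Bmpr2 (0.0609) did not pass, and Bmper did not pass without a filter on low counts (0.146).

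With IL1B and TNFA in both genotypes, the same comparison gave 3 genes higher in dKO cells (Tgfbr1, Bmper, Nog) and 2 lower (Eng, Chrdl1), where 34.0% of all genes tested passed, 18.6% higher and 15.4% lower. No gene of the 10 overlapped between the genotypes, as for 73.5% of all genes. Their median log2 fold change was -0.33, beside 0.01 over all genes tested.

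Eng had 320.3 and 417 CPM in dKO cells with cytokines, against 1041 and 940.5 CPM in WT cells with cytokines. Both dKO libraries were below both WT libraries, and the log2 fold change was -1.43 (SE 0.27, adjusted p = 0.0106). Tgfbr1 had 100.03 and 102 CPM in dKO cells, against 56.8 and 60.6 CPM in WT cells, with tight pairs that did not overlap (log2 fold change 0.78, SE 0.09, adjusted p = 0.00274). Acvrl1 (65.6 and 81.1 CPM in dKO, 96.4 and 93.0 CPM in WT), Bmpr2 (232 and 262 CPM in dKO, 294 and 338 CPM in WT) and Tgfbr2 (219.5 and 270.0 CPM in dKO, 270.2 and 272 CPM in WT) did not pass, with log2 fold changes of -0.37, -0.36 and -0.15 (adjusted p = 0.141, 0.0965 and 0.504). For Tgfbr2, dKO replicate 2 stood within 1 CPM of WT replicate 1. Without both dKO replicate 2 libraries, the log2 fold changes were -0.52 for Acvrl1 and -0.44 for Bmpr2.

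The ligand Bmp2 had 7.40 and 8.30 CPM in dKO cells with cytokines, against 9.57 and 9.70 CPM in WT cells with cytokines (log2 fold change -0.29, 95% interval -0.93 to 0.34, adjusted p = 0.414). Bmp4 had 14.5 and 57.2 CPM in dKO cells, against 98.6 and 94.1 CPM in WT cells. Its dKO libraries differed by 1.97 on the log2 scale and were both below WT. The log2 fold change of -1.42 did not pass (95% interval -3.23 to 0.39, adjusted p = 0.180), and was -2.72 without both dKO replicate 2 libraries.

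Among the modulators, Bmper had 195 and 67.01 CPM in dKO cells with cytokines, against 40.1 and 33.7 CPM in WT cells with cytokines. Replicate 1 of dKO was the highest of all 8 libraries, and the call (log2 fold change 1.83, SE 0.54, adjusted p = 0.0473) was the nearest to the threshold. Nog reached 109 and 113 counts (4.95 and 4.99 CPM) in dKO cells, against 0 and 4 counts (0 and 0.157 CPM) in WT cells. The dKO libraries nearly coincided, the ratio in summed counts was 59.8 (95% counting interval 23.1 to 222), and the fitted log2 fold change was 5.84 (SE 0.76, adjusted p = 0.00392). Chrdl1 had 1 and 0 counts in dKO cells, against 68 and 182 counts (2.999 and 7.15 CPM) in WT cells. With 1 count in the dKO group, the summed counts were 232-fold lower, with a 95% counting interval from 41.2 to 9195 (fitted log2 fold change -7.53, adjusted p = 0.00731).

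Tgfbr1, Nog and Chrdl1 passed whichever single library was left out. Eng lost its call without dKO replicate 1 with cytokines (adjusted p = 0.0603) or WT replicate 1 with cytokines (0.0634), and Bmper lost it in every such fit but the 1 without dKO replicate 2 with cytokines (0.0554 to 0.194), with a log2 fold change of 0.85 without dKO replicate 1 with cytokines. Bmper also did not pass without a filter on low counts (0.156) or with only the 4 libraries compared in the fit (0.0771).

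**Figure D2:**
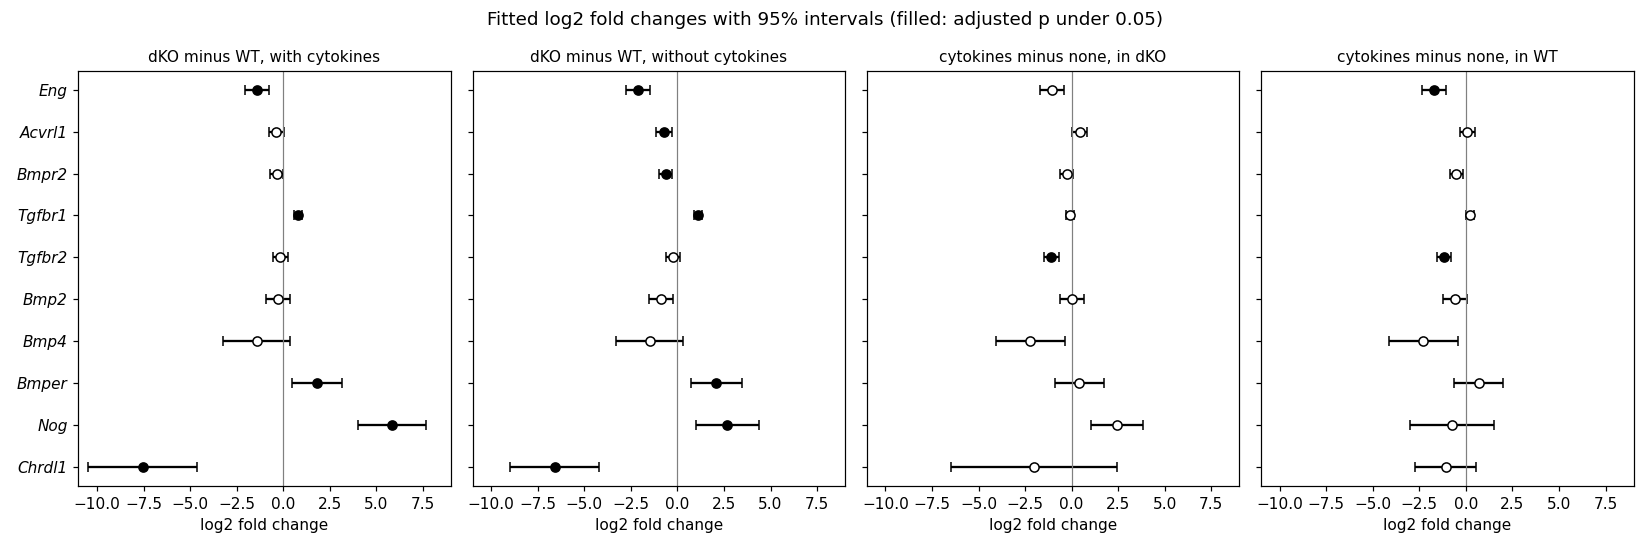
Fitted log2 fold change of each of the 10 genes with its 95% interval in 4 comparisons; filled points have an edgeR adjusted p under 0.05. Eng, Tgfbr1, Bmper, Nog and Chrdl1 are filled in both genotype comparisons, and Tgfbr2 is filled in both cytokine comparisons.

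The cytokine comparisons asked how the genes respond to IL1B and TNFA in each genotype. Libraries of the same replicate number and genotype deviated together from their group means, so the fit with the replicate number as a block within each genotype is given beside the fit without it where it changes a call of the 10 genes. In WT cells, Eng and Tgfbr2 fell with cytokines and no gene of the 10 rose, where 17.4% of all genes tested passed, 9.72% higher and 7.69% lower. With libraries paired within genotype, 1 of the 10 rose and 6 fell, where 37.9% of all genes passed, 19.3% higher and 18.5% lower. The libraries with and without cytokines did not overlap for 9 of the 10 genes, all but Nog, as for 68.2% of all genes tested.

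Eng had 1041 and 940.5 CPM in WT cells with cytokines, against 3354 and 3214 CPM in WT cells without them. Both cytokine libraries were below both untreated ones by about the same factor (log2 fold change -1.73, SE 0.27, adjusted p = 0.0104). Tgfbr2 had 270.2 and 272 CPM in WT cells with cytokines, against 612 and 614 CPM without, so the replicates of each condition nearly coincided (log2 fold change -1.18, SE 0.17, adjusted p = 0.00780). Bmpr2 (294 and 338 CPM with cytokines, 451 and 461 CPM without) just missed the threshold (log2 fold change -0.53, adjusted p = 0.0509), and passed in the paired fit (adjusted p = 0.00279) and with DESeq2 (adjusted p = 0.00793). Acvrl1 and Tgfbr1 did not pass in either fit: Acvrl1 had 96.4 and 93.0 CPM with cytokines against 90.9 and 88.1 CPM without, and Tgfbr1 had 56.8 and 60.6 CPM against 52.2 and 48.6 CPM (paired log2 fold changes 0.08 and 0.22, adjusted p = 0.471 and 0.0728).

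Bmp4 had 98.6 and 94.1 CPM in WT cells with cytokines, against 464 and 482 CPM without. Both pairs were tight and far apart, yet the log2 fold change of -2.30 did not pass in the fit over all 8 libraries (SE 0.75, adjusted p = 0.0916), in which each gene has 1 spread for all groups and the dKO libraries of Bmp4 differ widely. With paired libraries it passed (SE 0.10, adjusted p = 4.17e-06), as it did with only the 4 WT libraries in the fit (adjusted p = 2.34e-04). Bmp2 had 9.57 and 9.70 CPM with cytokines, against 13.6 and 15.5 CPM without, and passed as lower with paired libraries (log2 fold change -0.59, SE 0.17, adjusted p = 0.0272; without pairing -0.60, adjusted p = 0.169). Bmper had 40.1 and 33.7 CPM with cytokines, against 26.4 and 19.7 CPM without, and passed as higher with paired libraries (log2 fold change 0.69, SE 0.17, adjusted p = 0.0227; without pairing 0.68, adjusted p = 0.433). Chrdl1 had 2.999 and 7.15 CPM with cytokines, against 7.75 and 13.8 CPM without, and passed as lower with paired libraries (log2 fold change -1.13, SE 0.28, adjusted p = 0.0141; without pairing -1.08, adjusted p = 0.324). Nog had 0 and 4 counts with cytokines against 3 and 5 counts without, too few to show a difference at this depth (ratio 0.589, 95% counting interval 0.130 to 2.20).

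In the fit without pairing, the Eng call was lost without any 1 of the 4 WT libraries (adjusted p from 0.0619 to 0.0704), and the Tgfbr2 call without WT replicate 1 with cytokines or either WT library without them (0.0546 to 0.0625). Their log2 fold changes in those fits were -1.82 to -1.66 for Eng and -1.19 to -1.17 for Tgfbr2.

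In dKO cells, Tgfbr2 alone fell with cytokines and none of the 10 rose, where 5.55% of all genes tested passed, 3.50% higher and 2.06% lower. With libraries paired within genotype, Acvrl1 and Nog rose and Eng, Tgfbr2 and Bmp4 fell, where 24% of all genes passed, 12.7% higher and 11.3% lower. The libraries with and without cytokines did not overlap for 6 of the 10 genes, against 49.5% of all genes tested.

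Tgfbr2 had 219.5 and 270.0 CPM in dKO cells with cytokines, against 446 and 592 CPM without. Both cytokine libraries were lower than both others (log2 fold change -1.09, SE 0.17, adjusted p = 0.0216), and the paired fit gave -1.08 (adjusted p = 1.54e-04). Eng had 320.3 and 417 CPM with cytokines, against 559 and 960.1 CPM without. It fell in both replicates, with a log2 fold change of -1.003 in the paired fit (SE 0.12, adjusted p = 0.00103) and of -1.04 without pairing (adjusted p = 0.0764). Acvrl1 had 65.6 and 81.1 CPM with cytokines, against 45.4 and 63.3 CPM without, and rose in the paired fit (log2 fold change 0.44, SE 0.08, adjusted p = 0.00665; without pairing 0.43, adjusted p = 0.200). Bmpr2 had 232 and 262 CPM with cytokines against 262 and 329 CPM without, and Tgfbr1 had 100.03 and 102 CPM against 104 and 111 CPM. Neither passed in either fit (paired log2 fold changes -0.25 and -0.09, adjusted p = 0.0840 and 0.493).

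Bmp4 had 14.5 and 57.2 CPM in dKO cells with cytokines, against 82.7 and 254 CPM without. The libraries of each condition differed several-fold, but the change within each replicate number was alike, -2.51 and -2.15 on the log2 scale, so that the paired fit gave -2.32 (SE 0.11, adjusted p = 1.57e-05) and the fit without pairing -2.23 (SE 0.75, adjusted p = 0.152). Nog had 109 and 113 counts with cytokines, against 18 and 25 counts without. Both replicates rose, with a ratio of 5.37 in summed counts (95% counting interval 3.86 to 7.63), a paired log2 fold change of 2.43 (SE 0.37, adjusted p = 0.00267) and 2.42 without pairing (adjusted p = 0.0654). Bmp2 (7.40 and 8.30 CPM with cytokines, 5.68 and 9.94 CPM without) and Bmper (195 and 67.01 CPM with cytokines, 126 and 69.7 CPM without) each moved in opposite directions in the 2 replicates and did not pass in either fit. Chrdl1, with 1 and 0 counts against 0 and 5 counts, was too low for a difference to be detectable.

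Without pairing, the Tgfbr2 call in dKO cells was lost without dKO replicate 1 with cytokines, either WT library with cytokines or either WT library without (adjusted p from 0.0538 to 0.0902), and with only the 4 dKO libraries in the fit (adjusted p = 0.159). Without both dKO replicate 2 libraries, each dKO group holds 1 library, so only effect sizes are given. The log2 fold changes in dKO cells were then -0.80 for Eng, 0.54 for Acvrl1 and -2.50 for Bmp4. In WT cells they were -0.55 for Bmpr2, -0.62 for Bmp2 and -2.32 for Bmp4. Of the 10 endothelial markers, none passed with cytokines in either genotype without pairing. In the paired fit 1 was higher and 2 were lower in dKO cells (12.7% and 11.3% of all genes), and 1 was higher and 4 were lower in WT cells (19.3% and 18.5% of all genes). With both dKO replicate 2 libraries left out, the median log2 fold change of the endothelial markers was -0.13 in dKO cells and -0.44 in WT cells. Of the 13 stellate cell, pericyte and fibroblast markers tested, none passed in dKO cells and 2 were higher in WT cells, Pdgfra and Pdgfrb, and the paired fit gave 1 higher and 1 lower in dKO cells and 3 higher and 1 lower in WT cells. The part of these markers in the cytokine results was not tested.

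**Figure D3:**
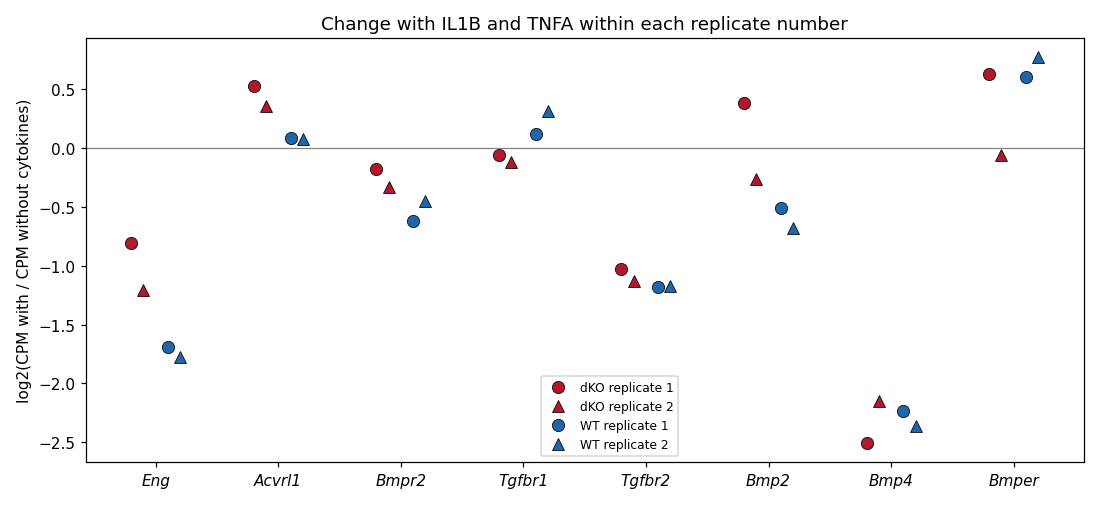
Change with IL1B and TNFA within each replicate number, as log2 of the CPM with cytokines over the CPM without, for the 8 genes whose libraries all had counts well above 0. Red is dKO, blue is WT, circles are replicate 1 and triangles replicate 2; Bmp4 and Tgfbr2 changed by like amounts in all 4 pairs, and Eng changed less in both dKO pairs (-0.80 and -1.20) than in both WT pairs (-1.69 and -1.77).

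Whether the cytokine response differed between genotypes was tested as an interaction, dKO response minus WT response. Without pairing none of the 10 genes passed, and neither did any of the 15698 genes in edgeR (0% called), although 1683 genes, among them Tgfbr1 and Nog, had an unadjusted p under 0.05. DESeq2 called 391 genes and none of the 10. With libraries paired within genotype, 6.03% of all genes passed and Eng was the 1 gene of the 10 among them, with a log2 difference of 0.73 (SE 0.17, adjusted p = 0.0484). Eng fell by 0.80 and by 1.20 on the log2 scale in the dKO pairs, and by 1.69 and by 1.77 in the WT pairs, so its fall was smaller in both dKO pairs. Tgfbr2 and Bmp4 differed least, with paired log2 differences of 0.10 (95% interval -0.19 to 0.38) and -0.02 (95% interval -0.35 to 0.31). For Nog the paired difference was 3.21 (SE 1.00, adjusted p = 0.107), from 43 and 8 summed counts in the untreated dKO and WT groups. Tgfbr1 had log2 changes of -0.06 and -0.12 in the dKO pairs and of 0.12 and 0.32 in the WT pairs, and the difference of -0.31 did not pass in either fit (paired adjusted p = 0.180).

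Beyond the 10 genes, 65 further genes were counted in lists of receptors, ligands, antagonists, SMAD proteins and their targets. One list held extracellular BMP antagonists and modulators other than the 3 above, among them the protease gene Bmp1 and the membrane protein gene Crim1. Between dKO and WT, 11 of the 14 tested had a log2 fold change above 0 with cytokines and 10 without. With cytokines, 8 of the 14 tested rose and 2 fell, and without cytokines 7 rose and 1 fell (18.6% and 15.4% of all genes with cytokines, 13.4% and 9.66% without). The list's median log2 fold change was 1.00 with cytokines and 1.05 without, beside 0.01 and 0.02 over all genes. Grem1, which encodes the antagonist gremlin, had 1282 and 2225 CPM in dKO cells without cytokines, against 20.7 and 55.3 CPM in WT cells without cytokines (log2 fold change 5.53, SE 0.70, adjusted p = 0.00641). With cytokines it had 728 and 1622 CPM in dKO cells, against 101 and 119 CPM in WT cells (log2 fold change 3.41, SE 0.63, adjusted p = 0.0121). Chrd, which encodes chordin, averaged 17.7 CPM in dKO and 1.05 CPM in WT without cytokines (16.8-fold). Bmp1, a protease that cleaves chordin, averaged 380.4 CPM in dKO and 48.1 CPM in WT without cytokines (7.91-fold). Against the direction of the list, Crim1, a membrane protein that binds BMPs, was 2.63-fold lower in dKO cells without cytokines (403 CPM against 1059.9 CPM in WT). Fst, which encodes the activin-binding follistatin, was 4.88-fold lower with cytokines (62.3 CPM against 304 CPM in WT), and just missed the threshold without (adjusted p = 0.0501).

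Of 10 other receptor and co-receptor genes tested, 2 rose and none fell with cytokines, beside 18.6% and 15.4% of all genes, and 2 rose and 1 fell without, beside 13.4% and 9.66%. The list's median log2 fold change was 0.39 with cytokines and 0.05 without, when both dKO replicate 2 libraries were left out. Bmpr1a, a type I receptor for BMPs, was higher in dKO cells in both conditions, with 209 and 191 CPM in dKO against 129 and 115 CPM in WT with cytokines, and 234 and 191 CPM in dKO against 119.8 and 96.7 CPM in WT without. The decoy receptor gene Bambi rose 2.99-fold without cytokines (adjusted p = 0.0389) and the co-receptor gene Rgma 4.78-fold with them (adjusted p = 0.0101), while the co-receptor gene Rgmb was 1.56-fold lower without them (adjusted p = 0.00756). Among 6 other ligand genes tested of 13 listed, Gdf11 rose in both conditions (5.62-fold with cytokines, 2.98-fold without). Bmp6, a ligand that regulates liver hepcidin, had 86.4 and 211 CPM in dKO cells without cytokines, against 424 and 506 CPM in WT cells (log2 fold change -1.64, SE 0.39, adjusted p = 0.0308), and did not pass with cytokines (adjusted p = 0.194).

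Of the 6 SMAD genes for signal transduction, Smad2 was lower in dKO cells in both conditions (1.57-fold with cytokines, 1.60-fold without). With cytokines Smad5 was also lower and Smad3 and Smad9 were higher, beside 15.4% of all genes lower and 18.6% higher. Without cytokines 9.66% of all genes were lower and 13.4% higher. The Smad9 call rests on few reads, 26 summed counts in dKO against 10 in WT (0.584 and 0.208 CPM). Without both dKO replicate 2 libraries, the median log2 fold change of these 6 was -0.56 with cytokines and -0.49 without. Over all libraries it was -0.41 with cytokines and -0.35 without. Of the 14 SMAD target and feedback genes, 4 rose and 2 fell with cytokines, and 2 rose and 1 fell without, against 18.6% and 15.4% of all genes with cytokines and 13.4% and 9.66% without. With both dKO replicate 2 libraries left out, that list's median log2 fold change was -0.05 with cytokines and -0.64 without. Over all libraries it was 0.26 with cytokines and -0.09 without. Smad6, an inhibitory SMAD of the BMP pathway, was lower in both conditions, with 50.9 and 68.1 CPM in dKO against 101 and 96.4 CPM in WT with cytokines, and 57.2 and 82.2 CPM in dKO against 169.7 and 154 CPM in WT without (log2 fold change -1.22, SE 0.21, adjusted p = 0.0116). Tgfbi, a matrix protein induced by transforming growth factor beta, was 12.04-fold higher without cytokines (16.4 CPM in dKO against 1.36 CPM in WT) and 4.81-fold higher with them. Id1, a direct BMP target, had 26.7 and 79.7 CPM in dKO against 92.1 and 100.5 CPM in WT without cytokines. Its dKO libraries differed widely, replicate 2 being nearer to WT, and it did not pass (adjusted p = 0.353).

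**Figure D4:**
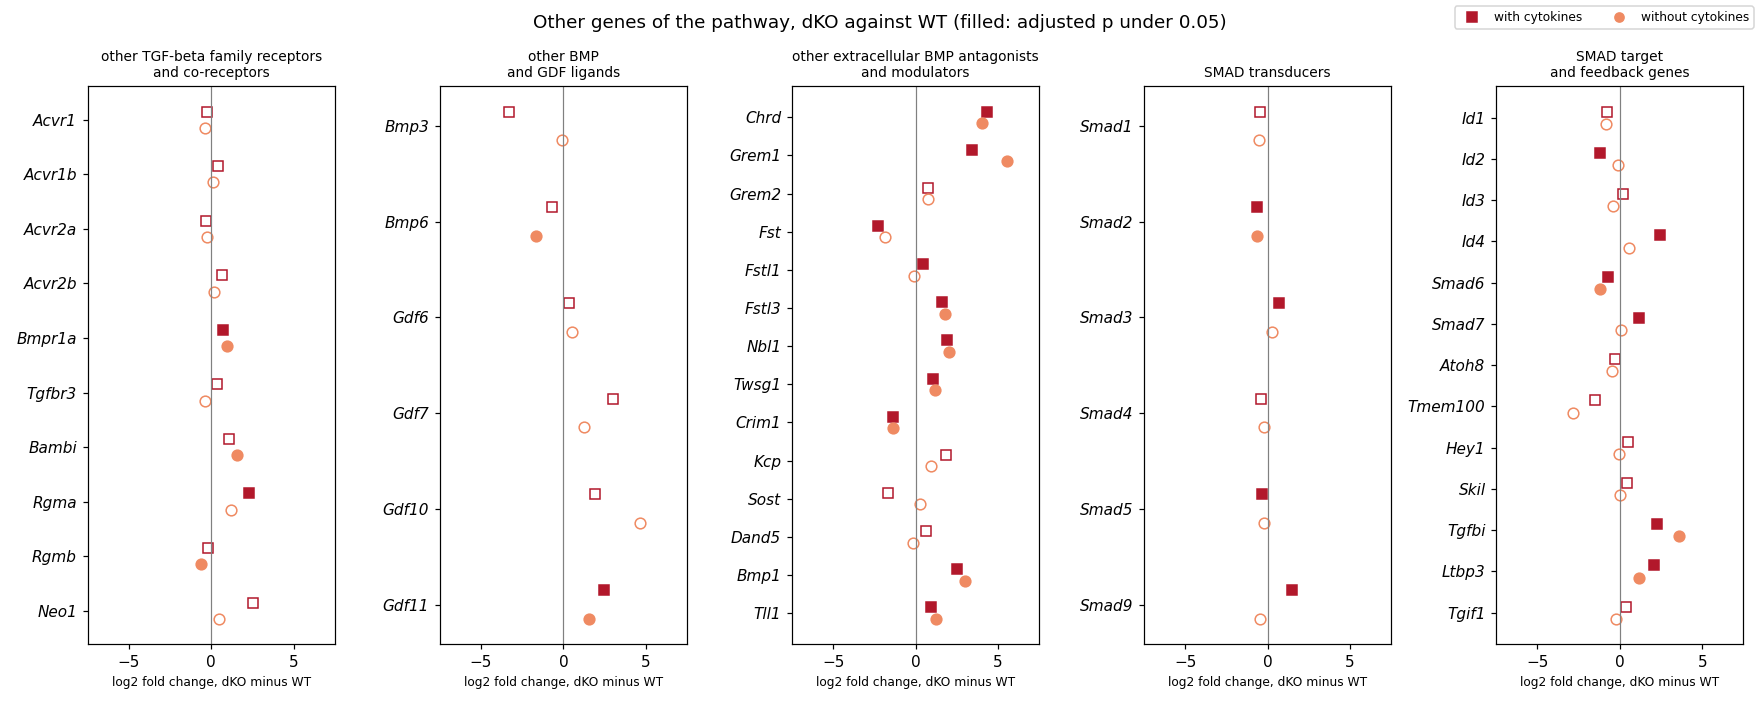
Log2 fold change between dKO and WT cells of the other pathway genes tested, all but 1, in 5 lists, with cytokines (squares) and without (circles); filled points have an edgeR adjusted p under 0.05. In the list of antagonists and modulators most filled points lie above 0, with Grem1 and Chrd farthest, while Crim1 and Fst lie below 0.

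With cytokines in WT cells, the target and feedback genes had 1 member higher and 4 lower of 14, against 9.72% and 7.69% of all genes. The genes that fell were Smad7 (51.6 CPM with cytokines, 128 CPM without), Id3 (329 and 777 CPM), Atoh8 and Ltbp3. Smad9, a BMP-responsive SMAD, had 0.220 and 0.196 CPM in WT cells with cytokines, against 5.02 and 6.07 CPM without (log2 fold change -4.70, SE 0.36, adjusted p = 0.00188). In dKO cells it had 0.727 and 0.442 CPM with cytokines, against 3.84 and 4.28 CPM without (log2 fold change -2.79, SE 0.32, adjusted p = 0.0116). Fstl1, a follistatin-like protein, rose with cytokines in both genotypes, with 2274 and 2138 CPM in dKO with cytokines against 765 and 731 CPM in dKO without, and 1679 and 1613 CPM in WT with cytokines against 752 and 866 CPM in WT without. Crim1 fell in both, with log2 fold changes of -1.17 in dKO (adjusted p = 0.0209) and -1.18 in WT (adjusted p = 0.00899). None of the 14 target and feedback genes passed in dKO cells without pairing, whereas 3 rose and 4 fell there with paired libraries (12.7% and 11.3% of all genes), and 3 rose and 6 fell in WT cells (19.3% and 18.5% of all genes).

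Across the 8 libraries, the genes whose log2 pattern lay nearest to that of Eng, among 9928 genes compared, were Gpm6a, Ppargc1a, Bex4, Tbc1d4 and Prex2, with root mean square differences of 0.228, 0.244, 0.300, 0.302 and 0.319 on the log2(CPM + 1) scale. The 1 added to CPM narrows the changes of genes at low level. Bex4 averaged 11.5 CPM in WT and 0.866 CPM in dKO without cytokines, a wider ratio than that of Eng (4.32-fold). Gpm6a, which encodes a membrane glycoprotein, averaged 57.4 ± 16.3 CPM in dKO with cytokines, 178 ± 24.2 CPM in WT with cytokines, 145 ± 15.9 CPM in dKO without and 539.8 ± 32.0 CPM in WT without (SD, n = 2 each). Of the 10 genes, Bmp4 lay nearest to Eng, with a difference of 0.661, and Bmper farthest with 2.14. Bmpr2 and Bmp2 were the nearest pair among the 10, at 0.159. These distances describe the 8 libraries, which share 4 groups, and say nothing of shared control.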

How the data were processed

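The deposited values are raw counts of reads per gene, whole numbers with no normalization seen in them, for 8 libraries of polyadenylated RNA. The submitters' processing notes name FastQC 0.11.5, STAR 2.7.6a and the build GRCm38. No source used here names the counting program, its strand setting or its annotation release, and per the labels' protocols either an unstranded or a stranded kit was used. Coordinates and exon lengths were taken from GENCODE M21 on GRCm38.

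Counts were tested with edgeR 4.0.16 (R 4.3.3): TMM scaling, its default filter on low counts by group, 1 coefficient per group over all 8 libraries, robust quasi-likelihood fits, two-sided tests and Benjamini-Hochberg adjustment over all 15698 genes at 0.05. With 4 residual degrees of freedom and a common biological coefficient of variation of 24.3%, precision is limited. SE is the log2 fold change over the root of F. Depth behind the values was 23009062 to 26944030 counts a library. The 10 genes and the lists were chosen with earlier results of these data known, and of each list up to 3 of the largest changes past the threshold were named per comparison. Atoh8, Cd3e, Csf1r, Dcn, Ddx3y, Epcam, Fst, Id1, Lrat, Robo4, Smad5 and Xist, and Crim1 between genotypes, were named after their values were seen.

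Replicate numbers were checked for pairing: deviations from the group means of libraries with the same number correlated at 0.76 within dKO and 0.53 within WT over 15698 genes, but at 0.0694 to 0.181 between genotypes. The numbers were taken, from the data and the shared stems of the column names, to pair libraries within a genotype only. DESeq2 1.42.0, other scaling, no filter, fewer libraries and replicate blocks were the alternatives. Promoters were searched over 250 bases, leaving out the 50 transcribed bases of the RefSeq windows. 1 gene of the lists is not reported here by name.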

Additional observations from a re-analysis of the deposited data

Results flagged for a closer look

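The fall of Eng with IL1B and TNFA differed between the genotypes by a test of the difference itself, when libraries were paired within genotype. The log2 change was -1.003 in dKO cells (SE 0.12) and -1.73 in WT cells (SE 0.12), a difference of 0.73 (SE 0.17, 95% interval 0.33 to 1.12, edgeR adjusted p = 0.0484), with the smaller fall in both dKO pairs. Without pairing the difference was 0.69 (adjusted p = 0.586), and without both dKO replicate 2 libraries and without pairing it was 0.95. Of its 15 alternatives only the paired fit passed, and 14 did not, with the adjusted p running from 0.0484 to 0.888. The level before cytokines also differed, 759 ± 284 CPM in dKO and 3284 ± 99.2 CPM in WT cells (SD, n = 2 each), and its part in the difference was not tested.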

How the results depend on the processing

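Between genotypes with cytokines, 5 of the 10 genes and 5343 of all genes passed. Leaving out each library in turn gave 3 to 5 and 1621 to 5523, and leaving out both dKO replicate 2 libraries gave 8 of the 10. Without cytokines, 7 and 3617 passed, against 2 to 7 and 527 to 3783 without each library, 2266 of all genes with only the 4 libraries compared and 5602 without both dKO replicate 2 libraries. For cytokines in WT, 2 and 2733 passed, against 0 to 4 and 413 to 2749 without each library, 4 of the 10 with DESeq2, 6 and 4585 with only 4 libraries, 5 and 4417 without both dKO replicate 2 libraries, and 7 and 5943 with a replicate block within genotype. For cytokines in dKO, 1 and 872 passed, against 0 to 2 and 130 to 731 without each library, 4 and 1852 with DESeq2, 2 of the 10 without a filter, 0 and 1 with only 4 libraries, 4 and 1339 without both dKO replicate 2 libraries, 2 and 1351 with a replicate block over both genotypes, and 5 and 3769 with a block within genotype. For the interaction, 0 passed in both, against 0 and 0 to 41 without each library, 391 genes with DESeq2, 75 without a filter, 193 without both dKO replicate 2 libraries, and 1 and 947 with a block within genotype. The numbers did not pair libraries between genotypes. With the replicate block over both genotypes, Bmpr2 with cytokines (-0.36, adjusted p = 0.0395) and Bmp2 without (-0.93, adjusted p = 0.0254) also passed between genotypes. The causes were not tested. Of the single values of the 10 genes, 654 kept direction and side of the threshold, 48 lost and 47 gained a call, and 19 changed sign, none of them called in the fit over all libraries. For cytokines in dKO, Bmp2 was at -0.000543 with DESeq2, -9.8e-05 with RLE scaling, -0.00499 with only 4 libraries and -0.34 to 0.47 without each library. Bmper ran from -0.55 to 0.99 and Chrdl1 from -4.48 to 2.43 without each library, and Chrdl1 was 3.33 without both dKO replicate 2 libraries. For cytokines in WT, Nog ran from -4.83 to 0.14 without each library. In the interaction, the values without each library were -1.22 to 1.09 for Bmp4, -0.079 to 0.31 for Tgfbr2, -1.23 to 0.34 for Bmper and -3.40 to 3.52 for Chrdl1. Bmp4 was -0.019 with a block within genotype and -0.19 without both dKO replicate 2 libraries, where Chrdl1 was 4.43. A group left with 1 library was assumed to vary like the others, so the numbers passing in those fits rest on the spread of the other groups. With only 4 libraries, Chrdl1 in dKO and Nog in WT had too few counts to be tested.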

Other observations

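Endothelial marker genes other than Eng were lower in dKO cells with cytokines in 3 of 10 cases and without cytokines in 4 of 10 (edgeR, adjusted p under 0.05), beside 15.4% and 9.66% of all genes tested, and none was higher. Without both dKO replicate 2 libraries, the median log2 fold change of the 10 was -2.25 with cytokines and -2.34 without. DESeq2 over all libraries gave medians of -1.56 with cytokines and -1.79 without. The endothelial sialomucin gene Emcn averaged 268 CPM in dKO and 974 CPM in WT cells without cytokines (3.63-fold lower), and Esam, a junction protein gene, averaged 178 CPM in dKO and 613 CPM in WT (3.44-fold lower). Pecam1, which encodes the sorted marker CD31, had 277 and 636 CPM in dKO and 1607 and 1560.1 CPM in WT without cytokines (adjusted p = 0.0293). Cdh5, which encodes the other sorted marker, VE-cadherin, had 163 and 587 CPM in dKO and 1233 and 1307 CPM in WT without cytokines, and did not pass (adjusted p = 0.0904). In both genes dKO replicate 2 lay between dKO replicate 1 and WT, as for most of the 10 genes of the report.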
